A study of Mus musculus with 3 samples.

Results

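The genes described here are 37 genes of astrocytes, the star-shaped glial cells of the brain. They were taken as a list of symbols that marks the cell type, its transporters, its enzymes and its secreted products. The list was chosen with earlier results of these data known. A gene entered the data through every array probe whose accession matched a RefSeq transcript of that symbol, and probes of one gene were kept apart. Of the 37 genes, 34 had at least 1 such probe, with 46 probes among the 41174 gene probes of the array. Slc39a12, a zinc transporter gene, Slc25a18, a mitochondrial glutamate carrier gene, and Gjb6, which encodes connexin 30, had no probe matched by accession. A filter that asked for a reliable spot on at least 2 of 3 arrays left 43 probes for 33 genes, out of 27530 tested probes in all. It removed the single probe of Gfap and 1 probe each of Sox9 and Fgfr3.

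Total RNA of adult cortex, from mice aged 16 weeks, was compared between animals labelled Gtf2i(+/Δex2), heterozygous for an allele of Gtf2i named for exon 2, and wild-type animals labelled WT (+/+). Both genotypes had a background of 98.4% C57BL/6J and 1.6% 129Sv/CD1. Each of 3 two-colour arrays set a pool of mutant RNA against a pool of wild-type RNA, a pool coming from 3 to 5 mice per the series' design text, and the mutant RNA was labelled with Cy3 on replicates 1 and 3 and with Cy5 on replicate 2. Separate pools for the 3 arrays are not stated. The p-values therefore rest on the spread among 3 arrays, and that spread may be technical. The product of Gtf2i is the transcription factor TFII-I, and the comparison asks how transcript levels in the cortex differ in animals with this allele.

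Astrocytes take up glutamate released at synapses, turn it into glutamine and return it to neurons. Through end feet on blood vessels they move water and ions, they are joined to each other by gap junctions, and they carry glycogen, fatty acid and one-carbon enzymes. They also secrete lipoproteins, matrix proteins and protease inhibitors. Gfap and Vim encode their intermediate filaments, which rise in reactive astrocytes.

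Each value below is a log2 ratio, mutant divided by wild type, or a deposited signal of either channel. The direction is likely and not settled. It rests on the sample titles, on the readme's definition of the fold as test over control, and on the Pro25G control spots, whose median log2 ratio was 4.51 on replicate 1, -4.54 on replicate 2 and 4.58 on replicate 3, following the exchange of the dyes. Were the direction turned, every sign below would turn with it: 41.9% of the tested astrocyte probes would be higher and 14.0% lower, and the Aqp4 probe with the lowest ratio would be the highest, at 1.72-fold. Gtf2i itself, which was not used to set the direction, had a log2 ratio of -0.47 ± 0.04 (SD, n = 3; limma adjusted p = 0.0026) at probe A_52_P442585 and of -0.32 ± 0.05 (SD, n = 3; limma adjusted p = 0.00505) at A_51_P499905. The second of these lost its call without replicate 1 (adjusted p = 0.0559). The sources used here do not place either probe against exon 2, so neither checks the genotype. Reliable spots made up 64.4% to 69.7% of gene spots on the 3 arrays, whose number limits the precision.

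More astrocyte probes were lower than higher in the mutant cortex, and the falls were moderate in size. Of the 43 tested probes 18 fell, 6 rose and 19 did not pass a limma adjusted p of 0.05. Over all 27530 tested probes, 33.9% passed, 18.9% lower and 15.0% higher, against 41.9% lower and 14.0% higher among the astrocyte probes. The median log2 ratio of the astrocyte probes was -0.13, with the middle 50% from -0.41 to 0.10, beside -0.00 and a middle 50% from -0.12 to 0.10 over all tested probes. By gene, 14 of 33 had probes that fell and none that rose, 4 the reverse, 2 had probes in both directions and 13 had none called. Among all 12721 named genes these shares were 22.7%, 16.4%, 1.56% and 59.3%. The same sign on all 3 arrays was seen at 31 of the 43 probes, and at 65.1% of all tested probes. The tissue was whole cortex, so fewer astrocytes and less RNA per astrocyte cannot be told apart.

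Astrocyte probes were also bright, and bright probes were called more often. Their median signal was 2299, against 360 over all tested probes, and 30 of the 43 lay among the brightest 25% of tested probes. Among those bright probes 26.6% were lower and 23.6% higher over all genes, while of the 30 astrocyte probes there 12 fell and 6 rose. Among the 13 dimmer astrocyte probes 6 fell and 0 rose, beside 16.3% lower and 12.2% higher among all dimmer probes. That comparison was not matched for brightness. Of the 13 probes, 9 lay in the next brightest 25% of tested probes, and these held 5 of the 6 falls. Aqp4 alone gave 2 of the 6 falls. Changes of at least 1.5-fold were few: 2 astrocyte probes fell that far and 0 rose, beside 1.49% and 0.519% of all probes.

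**Figure D1:**
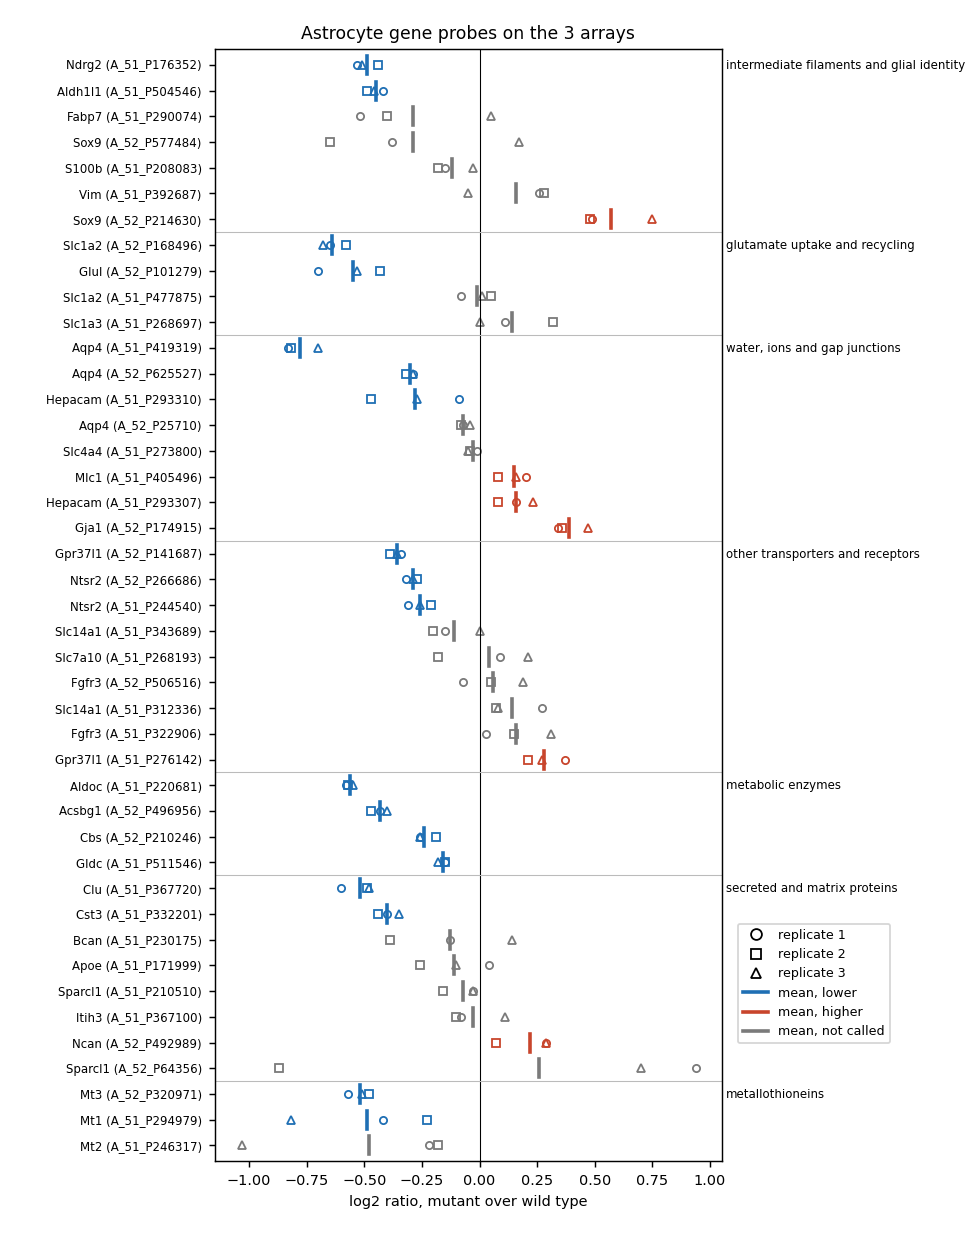
Log2 ratio of mutant over wild type (horizontal axis) for each of the 43 tested astrocyte probes (rows, grouped by role), with 1 open symbol per array and a vertical bar at the mean of the 3 arrays. Blue marks the 18 probes that fell, red the 6 that rose and grey the 19 not called by limma; most blue rows hold 3 symbols close together, whereas the grey rows of Fabp7, Sox9 (A_52_P577484) and Sparcl1 (A_52_P64356) spread across 0.

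Among the genes of glial identity, Ndrg2 and Aldh1l1 fell. Aldh1l1, a folate enzyme used as a general astrocyte marker, gave wild-type signals of 1043, 1135 and 1163 on replicates 1, 2 and 3 and mutant signals of 782, 806.7 and 847.8. The genotypes did not overlap, and the log2 ratios of -0.42, -0.49 and -0.46 differed little, with a mean of -0.45 ± 0.04 (SD, n = 3; limma adjusted p = 0.00274). Ndrg2, a cytoplasmic protein abundant in astrocytes, read -0.53, -0.44 and -0.51, a mean of -0.49 ± 0.05 (SD, n = 3), which is 71% of wild type (limma adjusted p = 0.00259). Its signals, 10365, 11636 and 11821 in wild type and 7156, 8582 and 8310 in the mutant, did not overlap either. S100b, which encodes a calcium-binding protein, read -0.12 ± 0.08 (SD, n = 3) and did not pass (limma adjusted p = 0.0936). Without replicate 3 it passed as lower at -0.16 (limma adjusted p = 0.0397).

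The filament genes gave no call. The single probe of Gfap was dim, with a reliable spot on 1 of 3 arrays, so it was not tested. Its signals were 126.2, 146.9 and 145.5 in wild type and 121.8, 122.5 and 145.5 in the mutant, where the medians of negative control spots lay between 72.27 and 81.44. The values overlap, and this probe carried too little signal to measure the gene. Vim, which encodes vimentin, read 0.26, 0.28 and -0.05 (limma adjusted p = 0.151). Its ratio was above 0 on replicates 1 and 2 and slightly below 0 on replicate 3, and without replicate 3 it passed at 0.27 (limma adjusted p = 0.00456).

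Sox9, a transcription factor of glial identity, had probes that disagreed. Probe A_52_P214630 rose, with signals of 1613, 1837 and 1319 in wild type and 2273, 2567 and 2212 in the mutant. Its log2 ratios were 0.49, 0.48 and 0.75, a mean of 0.57 ± 0.15 (SD, n = 3; limma adjusted p = 0.00406), and the genotypes did not overlap. Probe A_52_P577484 read -0.38, -0.65 and 0.17 (limma adjusted p = 0.199). Without replicate 3 this probe averaged -0.52 and passed in the direction opposite to the other (limma adjusted p = 0.000685). Fabp7, a brain fatty acid binding protein of radial glia and astrocytes, also differed on replicate 3, with -0.52, -0.40 and 0.05 (limma adjusted p = 0.105), and passed at -0.46 without replicate 3 (limma adjusted p = 0.000465).

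Glutamate uptake and recycling was represented by Slc1a2, Slc1a3 and Glul, and 2 of their 4 probes fell. Slc1a2 encodes GLT-1, the main glutamate transporter of cortical astrocytes. Its probe A_52_P168496 gave 1195, 1205 and 1402 in wild type and 763.3, 803.9 and 873.4 in the mutant. Every mutant signal lay below every wild-type signal, with log2 ratios of -0.65, -0.58 and -0.68, a mean of -0.64 ± 0.05 (SD, n = 3), which is 64.3% of wild type (limma adjusted p = 0.00201). The other probe, A_51_P477875, read -0.08, 0.05 and 0.01 (limma adjusted p = 0.91) at a mean signal of 189.7, the 21.6 percentile of the tested probes. The fall in this gene thus rests on the brighter of its probes.

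Glul encodes glutamine synthetase, which makes glutamine from the glutamate taken up. Its signals were 17566, 18568 and 20554 in wild type and 10835, 13796 and 14211 in the mutant. The genotypes did not overlap, and the log2 ratios of -0.70, -0.43 and -0.53 averaged -0.55 ± 0.14 (SD, n = 3; limma adjusted p = 0.00387). Slc1a3, which encodes the second glial glutamate transporter, GLAST, did not follow: it read 0.11, 0.32 and -0.00, with overlapping signals (limma adjusted p = 0.16). Without replicate 3 it stood at 0.22 and passed as higher (limma adjusted p = 0.0272). Of 12 tested probes for other genes of glutamate and glutamine handling, 6 fell and 1 rose, with a median of -0.21. Got2, the mitochondrial aspartate aminotransferase, read -0.58 ± 0.07, and the glutamine transporter gene Slc38a2 -0.75 ± 0.19 at 1 probe and -0.19 ± 0.12 at another. Slc1a1, the neuronal glutamate transporter, read -0.23 ± 0.07 at 1 probe, with its other probe at 0.09 ± 0.14 and not called, and Got1, the cytosolic aminotransferase, -0.22 ± 0.07 (SD, n = 3 for each). The limma adjusted p of the called probes ran from 0.00242 to 0.0469. Without replicate 1 the list had 3 falls and 0 rises, and Slc1a1, Got1 and the second Slc38a2 probe lost their calls, Got1 and that Slc38a2 probe also without replicate 2. Without replicate 2 it had 4 falls and 2 rises.

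**Figure D2:**
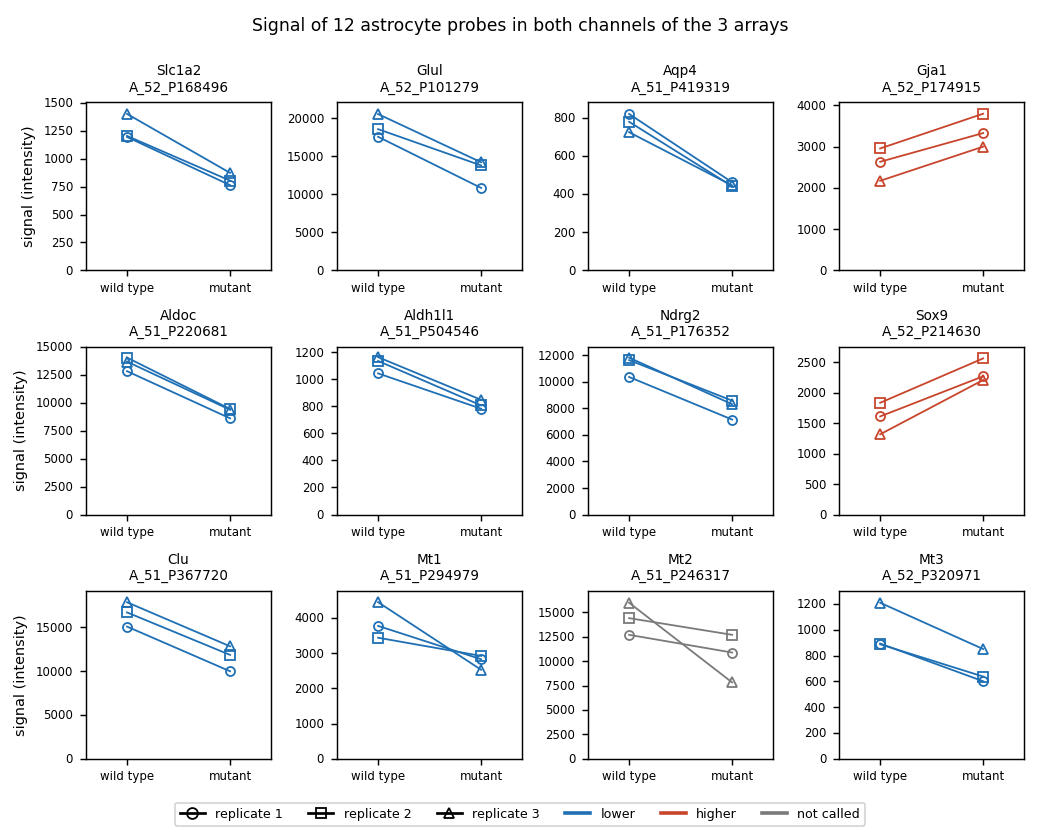
Deposited signal (intensity, linear axis from 0) of 12 astrocyte probes in the wild-type and mutant channels, with a line joining the channels of each array. The 9 blue panels fall and the 2 red panels of Gja1 and Sox9 rise on all 3 arrays, while in the grey panel of Mt2 the mutant signal of replicate 3, 7817, stands below the other mutant signals of 10877 and 12691.

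Genes of water, ion and cell coupling moved in both directions, with 3 of 8 probes lower and 3 higher. Aqp4 encodes the water channel of astrocyte end feet and had the lowest mean ratio of the 43 probes. At A_51_P419319 its signals were 819.4, 778.4 and 723.8 in wild type and 461.4, 440.6 and 444.7 in the mutant. The groups stood far apart, at log2 ratios of -0.83, -0.82 and -0.70, a mean of -0.78 ± 0.07 (SD, n = 3), which is 58.1% of wild type (limma adjusted p = 0.00197). The other Aqp4 probes read less. A_52_P625527 gave -0.29, -0.32 and -0.29 (limma adjusted p = 0.00476, or 0.0519 without replicate 1), and A_52_P25710 gave -0.07, -0.08 and -0.04 (limma adjusted p = 0.222). All 3 probes leaned lower on every array, and their order was the same on each.

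Gja1 encodes connexin 43, the main gap junction protein of astrocytes, and rose. Its signals were 2633, 2956 and 2172 in wild type and 3330, 3799 and 3000 in the mutant. No mutant signal fell within the wild-type range, and the log2 ratios were 0.34, 0.36 and 0.47, a mean of 0.39 ± 0.07 (SD, n = 3; limma adjusted p = 0.00406). Mlc1 encodes a membrane protein of end feet that binds the adhesion protein encoded by Hepacam. Mlc1 rose slightly, by 0.20, 0.08 and 0.16 on the 3 arrays (limma adjusted p = 0.0469), a call lost without replicate 1 (0.311) and without replicate 3 (0.087). The Hepacam probes were called in opposite directions. A_51_P293307 read 0.16, 0.08 and 0.23 (limma adjusted p = 0.0428) and lost its call without replicate 1 (0.232) or replicate 3 (0.109). The dimmer A_51_P293310 read -0.09, -0.47 and -0.27 (limma adjusted p = 0.0422) and lost it without replicate 2 (0.101), where the mean was -0.18. Slc4a4, the sodium bicarbonate cotransporter, stood at -0.03 ± 0.02 (SD, n = 3) and did not pass.

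The dystrophin-associated complex holds Aqp4 at the end foot. Of 7 tested probes for 6 genes of that complex, 2 fell and 1 rose. Agrn, the heparan sulphate proteoglycan agrin, rose by 0.37 ± 0.01. Dtna, which encodes dystrobrevin alpha, read -0.45 ± 0.20 and Dag1, dystroglycan, -0.41 ± 0.18, while the second probe of Dag1, at -0.20 ± 0.15, did not pass (SD, n = 3; limma adjusted p of 0.00336, 0.0123, 0.0124 and 0.0591 in that order). Dtna and Dag1 lost their calls without replicate 1, which left 0 falls.

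All 4 metabolic enzyme probes fell. Aldoc, the brain aldolase of glycolysis, gave 12824, 14038 and 13679 in wild type and 8607, 9444 and 9371 in the mutant. The arrays agreed closely, at -0.58, -0.57 and -0.55, a mean of -0.56 ± 0.02 (SD, n = 3), which is 67.6% of wild type (limma adjusted p = 0.00209). Acsbg1, an acyl-CoA synthetase, read -0.43, -0.47 and -0.40 (limma adjusted p = 0.00296), again with no overlap between signals of 2541 to 2920 in wild type and 1931 to 2109 in the mutant. Cbs, which condenses homocysteine and serine to cystathionine, read -0.26, -0.19 and -0.26 (limma adjusted p = 0.00953, or 0.0979 without replicate 1). Gldc, the decarboxylase of the glycine cleavage system, fell least, by 0.15, 0.15 and 0.18 on the log2 scale (limma adjusted p = 0.0261). The call of Gldc was lost when any single array was left out, with adjusted p of 0.184, 0.0565 and 0.0601 without replicates 1, 2 and 3.

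Other enzymes of these routes moved in both directions. Of 6 tested probes for other genes of glycine cleavage and transsulfuration, 1 fell and 2 rose. Gcsh, the lipoyl carrier protein of glycine cleavage, rose by 0.47 ± 0.18 and Dld, its dehydrogenase, by 0.37 ± 0.04 at 1 probe, while the brighter Dld probe stood at 0.04 ± 0.05 (SD, n = 3). The fall was of Shmt2, the mitochondrial serine hydroxymethyltransferase, at -0.25 ± 0.10 (SD, n = 3), and it was lost without replicate 1 or 2, as was the call of Gcsh without replicate 1. Of 13 probes for glycogen and lactate genes, 5 fell and 4 rose. Gbe1, the glycogen branching enzyme, rose by 0.64 ± 0.08, and Pygb, the brain glycogen phosphorylase, read -0.44 ± 0.17 and -0.42 ± 0.27 (SD, n = 3 for each). Slc16a1, a lactate and ketone transporter, rose at all 3 of its probes, by 0.31, 0.36 and 0.46, and Ldha, lactate dehydrogenase A, read -0.30 and 0.20 at its probes, the second not called. Without replicate 1 the 13 probes had 1 fall and 1 rise, and Slc16a1 lost its 3 calls.

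Among receptors and other transporters, Ntsr2 fell at both of its probes. Ntsr2 encodes a neurotensin receptor found on astrocytes and read -0.32, -0.27 and -0.29 at A_52_P266686 and -0.31, -0.21 and -0.26 at A_51_P244540. The probes read almost the same ratio, and neither call held without replicate 1, where the limma adjusted p of 0.00522 and 0.0085 became 0.061 and 0.0903. Gpr37l1, an orphan receptor of astrocytes, was called in opposite directions. Probe A_51_P276142 rose, at 0.37, 0.21 and 0.27 (limma adjusted p = 0.00911, or 0.0841 without replicate 1), and A_52_P141687 fell, at -0.34, -0.39 and -0.36 (limma adjusted p = 0.00348). The rising probe had a mean signal of 34404, the 99.6 percentile of the tested probes, and the falling probe 1315, the 81.4 percentile. Fgfr3, a fibroblast growth factor receptor, Slc7a10, a transporter of small neutral amino acids, and Slc14a1, a urea transporter, had 5 tested probes between -0.11 and 0.16, none of them called by limma; at an unadjusted p under 0.05 there were 2, A_51_P322906 of Fgfr3 and A_51_P312336 of Slc14a1.

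The secreted proteins Clu and Cst3 fell. Clu encodes clusterin, an extracellular chaperone and apolipoprotein, with signals of 15066, 16681 and 17839 in wild type and 9974, 11839 and 12818 in the mutant. These did not overlap, and the log2 ratios were -0.60, -0.49 and -0.48, a mean of -0.52 ± 0.06 (SD, n = 3; limma adjusted p = 0.00259). Cst3 encodes cystatin C, an inhibitor of cysteine proteases, and read -0.40, -0.44 and -0.35 (limma adjusted p = 0.00336). Its signals of 24617 to 33688 in the mutant overlapped those of 32414 to 45587 in wild type, with replicate 2 the brightest array in both channels, and the mutant signal was the lower on each array. Apoe, the main apolipoprotein of astrocytes, did not follow Clu: it read 0.04, -0.26 and -0.10 (limma adjusted p = 0.253). Of 5 tested probes for genes that load or take up lipoproteins 0 fell and 1 rose, Abcg1, a sterol exporter, at 0.36 ± 0.12 (SD, n = 3; limma adjusted p = 0.00854, or 0.0658 without replicate 1).

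Matrix genes gave 1 call. Ncan, the proteoglycan neurocan, rose by 0.29, 0.07 and 0.29 (limma adjusted p = 0.0402), and lost the call without replicate 1 (0.227) or replicate 3 (0.0621). Bcan, brevican, read -0.13, -0.39 and 0.14 and Itih3, a hyaluronan-binding protein, -0.08, -0.10 and 0.11, neither called; without replicate 3 Bcan passed at -0.26 (limma adjusted p = 0.0168). Sparcl1, which encodes the synapse-promoting protein hevin, read -0.03, -0.16 and -0.03 at A_51_P210510 and was not called.

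The second Sparcl1 probe, A_52_P64356, changed sign with the dyes. It was marked saturated on all 3 arrays, so its signals are bounds. The wild-type channel held 38637, 90178 and 42867 and the mutant channel 74187, 49347 and 69439, for log2 ratios of 0.94, -0.87 and 0.70. The channel that the labels give as Cy3 was the brighter on each array. A limma term for the dye was 1.69 at this probe and did not pass after adjustment (adjusted p = 0.212). Without replicate 2, the array of opposite dye, the probe would have been called higher at 0.82 (limma adjusted p = 0.0154).

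The metallothionein genes Mt1, Mt2 and Mt3 encode small cysteine-rich proteins that bind zinc and copper. Mt1 and Mt2 are induced by metals through the factor MTF-1, which binds metal response elements in their promoters, whereas Mt3 is the form of brain. The promoter windows of the 3 genes are shown as a description. They were picked after the ratios were seen, and a link between the letters and the ratios was not tested. They are from RefSeq on GRCm38.p6, run 5′ to 3′ on the plus strand from 250 bases before the annotated gene start to 30 bases after it, and lie at chr8:94178839-94179118 for Mt1, chr8:94172368-94172647 for Mt2 and chr8:94152357-94152636 for Mt3. Capitals mark each match, on either strand, to the metal response element letters TGCACNC or TGCGCNC.
Mt1: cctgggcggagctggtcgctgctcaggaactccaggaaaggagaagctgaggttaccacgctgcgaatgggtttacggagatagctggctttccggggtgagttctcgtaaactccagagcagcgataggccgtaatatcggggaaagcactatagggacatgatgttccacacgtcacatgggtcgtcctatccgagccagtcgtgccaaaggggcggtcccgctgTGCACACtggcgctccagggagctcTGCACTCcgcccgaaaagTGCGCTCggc
Mt2: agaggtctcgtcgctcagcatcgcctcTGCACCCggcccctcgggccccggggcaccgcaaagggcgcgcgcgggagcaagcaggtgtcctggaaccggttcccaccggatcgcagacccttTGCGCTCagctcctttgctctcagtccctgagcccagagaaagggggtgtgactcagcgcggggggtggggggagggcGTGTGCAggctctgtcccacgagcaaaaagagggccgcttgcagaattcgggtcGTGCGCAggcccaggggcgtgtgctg
Mt3: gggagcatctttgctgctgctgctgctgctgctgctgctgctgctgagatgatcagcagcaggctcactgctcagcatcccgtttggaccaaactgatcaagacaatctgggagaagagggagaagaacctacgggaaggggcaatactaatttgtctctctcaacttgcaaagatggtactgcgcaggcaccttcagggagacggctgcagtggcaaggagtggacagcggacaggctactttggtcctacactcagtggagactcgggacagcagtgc

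The Mt1 window held 3 matches and the Mt2 window 4, while the Mt3 window held 0, which says only that these letters are not in this stretch. Of all 32851 windows of this length 24.1% held at least 1 match, 1.73% at least 3 and 0.405% at least 4. Of the 39 windows of astrocyte members 5 held at least 1 match. The E-box CACGTG, a STAT palindrome and an NFI palindrome were also searched, and were in 2, 5 and 0 of the 39. Their shares over all windows were 6.79%, 7.83% and 0.0365%. A match is a description and not a binding site.

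Mt3 fell evenly over the arrays. Its signals were 892.7, 887.1 and 1209 in wild type and 600.5, 637 and 849.9 in the mutant, without overlap. The log2 ratios of -0.57, -0.48 and -0.51 averaged -0.52 ± 0.05 (SD, n = 3; limma adjusted p = 0.0025). Mt1 fell as well but unevenly, at -0.42, -0.23 and -0.82, a mean of -0.49 ± 0.30 (SD, n = 3; limma adjusted p = 0.0246, or 0.0791 without replicate 1). Its signals, 3773, 3437 and 4446 in wild type and 2826, 2921 and 2527 in the mutant, did not overlap, and replicate 3 had both the highest wild-type and the lowest mutant signal. Mt2 showed the same array pattern more strongly, with -0.22, -0.18 and -1.03, a mean of -0.48 ± 0.48 (SD, n = 3), and did not pass (limma adjusted p = 0.0862). Its signals were 12691, 14398 and 15972 in wild type and 10877, 12691 and 7817 in the mutant. Without replicate 3 Mt2 stood at -0.20, a smaller difference with the remaining arrays close together, and passed (limma adjusted p = 0.0177). Of 7 probes for other zinc and metal response genes 1 fell and 1 rose: Slc30a3, the synaptic vesicle zinc transporter, at -0.32 ± 0.06 and the zinc transporter gene Slc39a1 at 0.24 ± 0.07 (SD, n = 3), the second lost without replicate 1. Mtf1, which encodes MTF-1, read 0.17 ± 0.14 and 0.07 ± 0.03 (SD, n = 3) and was not called.

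**Figure D3:**
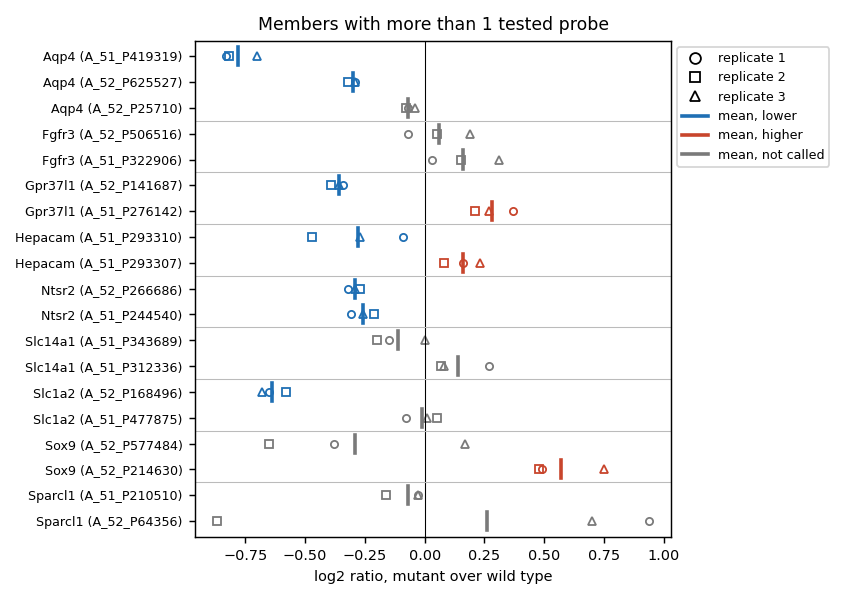
Log2 ratio of mutant over wild type for the 9 astrocyte genes with more than 1 tested probe, with 1 open symbol per array and a bar at the mean, coloured by limma call. The probes of Ntsr2 lie together, and those of Aqp4 and Slc1a2 differ in size. Probe means stand on opposite sides of 0 in Gpr37l1, Hepacam, Sox9, Sparcl1 and Slc14a1, with both directions called in Gpr37l1 and Hepacam only.

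Probes of the same astrocyte gene often read differently. In the 9 genes with several tested probes the highest and lowest mean log2 ratio differed by 0.04 in Ntsr2, 0.44 in Hepacam, 0.63 in Slc1a2, 0.65 in Gpr37l1, 0.72 in Aqp4 and 0.86 in Sox9, with a median difference of 0.44. Over all 3270 named genes with several tested probes the median difference was 0.16. Ntsr2 was the single one of the 9 with all probes called in the same direction, a pattern that 13.1% of the 3270 genes had, and 2 of the 9 were called in both directions, as were 6.06% of the 3270. The sources used here do not say which transcripts or exons the probes cover, and 24 of the 33 tested genes rest on 1 probe.

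**Figure D4:**
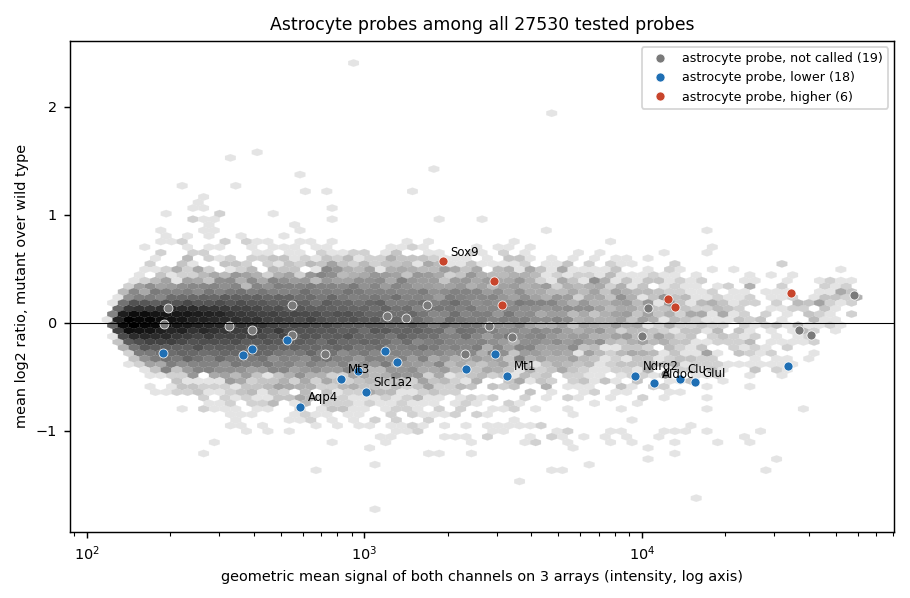
Mean log2 ratio of mutant over wild type against the geometric mean signal of both channels (intensity, log axis) for all 27530 tested probes as grey density, with the 43 astrocyte probes as points coloured by limma call. Blue points occur at dim and bright signals, with Aqp4 at 589 reading -0.78 and Glul at 15569 reading -0.55, and Sox9 stands highest at 0.57.

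Several astrocyte probes differed between replicate 3 and the other arrays. Medians of the 43 probes were -0.15, -0.20 and -0.05 on replicates 1, 2 and 3. On replicate 3 Fabp7, Vim, Bcan, Itih3 and A_52_P577484 of Sox9 had the opposite sign to replicates 1 and 2, and the ratios of Mt1 and Mt2 were lowest there. Markers of thalamus, the relay nucleus below the cortex, also differed on that array. Their 15 tested probes averaged -0.03, -0.04 and 0.70 on replicates 1 to 3, and 1 of 15 was called, as higher; without replicate 3 there were 4 falls and 1 rise, and without replicate 1 or 2 there was no call by limma. Their summed signal was 12653, 13411 and 6267 in wild type and 13368, 14770 and 12183 in the mutant. Blood cell markers averaged -0.40, -0.45 and -0.04 over 7 probes. Over the 43 astrocyte probes, which share the arrays and their normalization, the ratios correlated at r = 0.59 between replicates 1 and 2, 0.82 between 1 and 3 and 0.51 between 2 and 3. Without the saturated Sparcl1 probe, left out after seeing the data, r over 42 probes was 0.89, 0.79 and 0.70 in that order, so which array stood apart depended on that probe. The part of the marker differences in the astrocyte values was not tested. Without replicate 3 the astrocyte counts were 23 lower and 5 higher, without replicate 1 they were 12 and 2, and without replicate 2 they were 16 and 7. Over all 27530 tested probes the calls in either direction were 9885, 2409 and 7053 in that order, against 9333 with all 3 arrays.

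Other genes enriched in astrocytes leaned the same way by less. Of 64 tested probes for 54 such genes, 21 fell and 8 rose, or 32.8% and 12.5%, with a median of -0.05. The nuclear factor I genes Nfib and Nfix, which act in gliogenesis, read -0.52 ± 0.04 and -0.46 ± 0.03, and Prdx6, an antioxidant enzyme, -0.54 ± 0.06 (SD, n = 3). Second probes of Nfib and Prdx6 fell too, to -0.28 and -0.27. All of these were called by limma, with adjusted p up to 0.0078, and the second probes lost their calls without replicate 1, where the list had 4 falls and 2 rises. Without replicate 2 it had 14 and 5. Nfia, a nuclear factor I gene of the same list named here outside the naming rule, went the other way. It rose by 0.33 ± 0.19 (SD, n = 3; limma adjusted p = 0.0273, or 0.14 without replicate 1).

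Of 30 tested probes for 26 genes induced in reactive astrocytes, 4 fell and 3 rose, with a median of -0.03. Hspb1, a small heat shock protein, read -0.35 ± 0.05, the class I histocompatibility genes H2-T23 and H2-D1 read -0.25 ± 0.05 and -0.22 ± 0.09, and Emp1, a membrane protein, 0.20 ± 0.02 (SD, n = 3; limma adjusted p from 0.00443 to 0.0216). Without replicate 1 the list had 1 fall, Hspb1, and 0 rises. Without replicate 3 it had 4 falls and 1 rise. Serpina3n, Cp, Cd44 and Timp1, named here outside the naming rule, stood at -0.16, -0.07, -0.09 and 0.06 and were not called. Serpina3n read -0.25, -0.34 and 0.10 on the 3 arrays and passed as lower without replicate 3 (limma adjusted p = 0.00348).

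**Figure D5:**
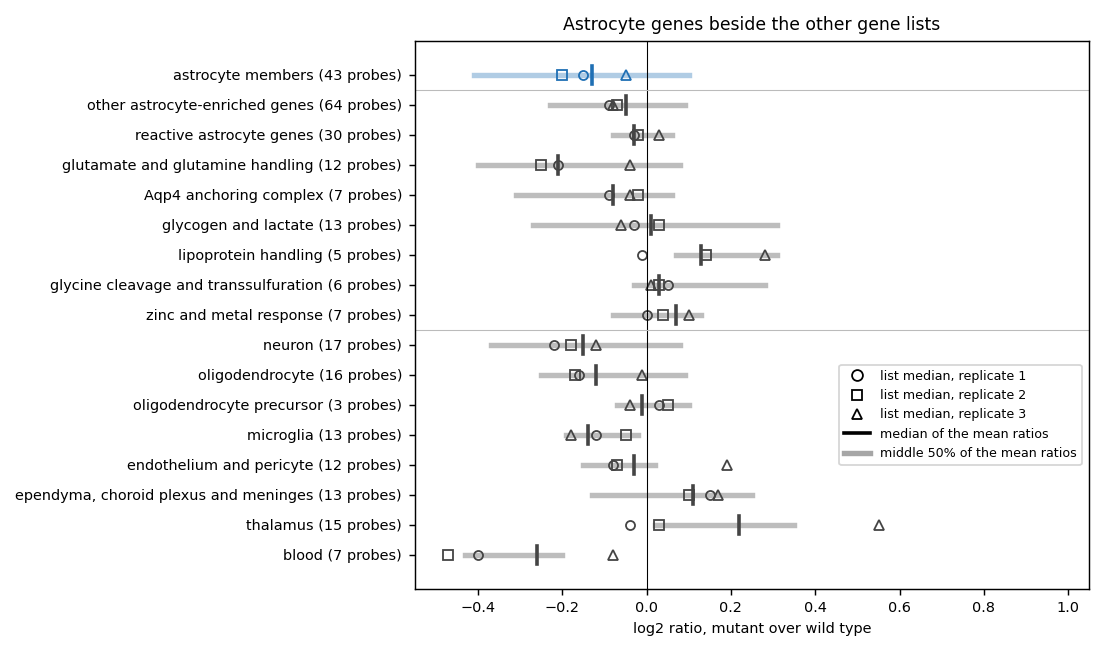
Median log2 ratio of mutant over wild type of each gene list on each array (open symbols), the median of the mean ratios (vertical bar) and the middle 50% of the mean ratios (shaded bar); lists below the second line mark other cell types or regions. The astrocyte list has its medians between -0.20 and -0.05, close to those of the neuron list, and the thalamus list stands at 0.55 on replicate 3.

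Markers of other cell types in the cortex gave values that overlapped those of the astrocyte genes. Of 17 probes for 10 neuron markers 7 fell and 2 rose, with a median of -0.15, and of 13 microglia probes 6 fell and 1 rose, with a median of -0.14. The shares lower were 41.2% of neuron and 46.2% of microglia probes, beside 41.9% of astrocyte probes and 18.9% of all tested probes. The lowest mean ratio was -0.87 among neuron and -0.78 among astrocyte probes. Of 7 blood probes 4 fell and 0 rose (median -0.26), with 1 fall without replicate 1 or 2 and 6 without replicate 3. Of 16 oligodendrocyte probes 4 fell and 3 rose (median -0.12), and of 12 endothelial and pericyte probes 1 fell and 2 rose (median -0.03). Choroid plexus, ependymal and meningeal markers had 2 falls and 4 rises among 13 probes, and the 3 probes of oligodendrocyte precursors had no call by limma, with 2 at an unadjusted p under 0.05, of Pdgfra and Cspg4. Leaving out 1 array moved these counts. Without replicate 1 the falls and rises were 4 and 0 for neurons, 0 and 0 for microglia, 2 and 0 for oligodendrocytes, 0 and 2 for endothelium and pericytes, and 1 and 1 for choroid plexus, ependyma and meninges. Without replicate 2 the endothelial and pericyte counts were 0 and 2, and those of choroid plexus, ependyma and meninges 1 and 5. Without replicate 3 they were 4 and 0 for microglia, 7 and 3 for oligodendrocytes, 3 and 2 for endothelium and pericytes, and 1 and 1 for oligodendrocyte precursors. The summed signal of the neuron probes was 137052, 163272 and 150458 in wild type on replicates 1, 2 and 3. In the mutant it was 147320, 147755 and 169139, higher on replicates 1 and 3 and lower on replicate 2. No probe was left out of that sum, and its bright Snap25 probe A_51_P335555 read 0.58, -0.18 and 0.60. The summed signal of the astrocyte probes without the saturated Sparcl1 probe was 285622, 351679 and 299991 in wild type on replicates 1, 2 and 3. In the mutant it was 266107, 311458 and 267743, lower on each array. The neuron and astrocyte sums were thus not formed alike. With the saturated probe the sum on replicate 1 was 324259 in wild type and 340293 in the mutant, so its direction there turned. No difference between these lists was tested.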

How the data were processed

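The authors deposited 1 table per array with a linear intensity in 2 channels for 44290 spots, background-subtracted, normalized in a way the sources used here do not describe and corrected for the dye swap, per the deposited readme, which names GenePix. Spots marked reliable have a foreground above 2 times the background. A collapsed log2 ratio was deposited too, as was a series table of signed folds, a score not tested here. Per the labels' protocols, 500 ng of total RNA was amplified by in vitro transcription for 60-mer arrays, with an RNA integrity number of at least 7.

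Spots of one probe were averaged, and accessions were matched without versions to RefSeq genes on GRCm38.p6, which named 21445 of 41174 probes (52.1%). Probes reliable on at least 2 arrays were tested with limma 3.58.1 in R 4.3.3 (lmFit and eBayes, mean log2 ratio of the channels against 0), with Benjamini-Hochberg adjustment over all 27530 tested probes at 0.05. The scripts were tested on simulated data. Figures used matplotlib 3.10.9.

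The members and lists were chosen with earlier results of these data known. Per-array values are given for members called at a mean of at least 0.3, with disagreeing probes, or in a fixed group (Gfap, Aqp4, Slc1a2, Slc1a3, Aldh1l1, Mt1, Mt2 and Mt3); values of other members, given for completeness, fall outside this rule. Of other lists, the 4 probes with the smallest p were named, and second probes beside them; 1 such gene is not reported here. In a list, a probe with adjusted p under 0.05 counts as risen or fallen. Alternatives are listed in the closing section.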

Additional observations from a re-analysis of the deposited data

How the results depend on the processing

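Across 14 alternatives, 13 of the 24 called astrocyte probes kept call and direction in every alternative that included them, 11 lower and 2 higher. The count of lower probes stayed within 1.5 times of 18 in each. The count of higher probes moved from 6 to 3 with no filter on dim probes, 3 with negative controls subtracted, 3 with replicates 1 and 2 averaged as 1 and 10 with array weights. Leaving out 1 array gave 12 to 23 lower, 2 to 7 higher, a median log2 ratio of -0.17 to -0.09, and 2409 to 9885 called probes in all, against 9333. The count of 2409 was without replicate 1, so calls were lost there among all probes and not only among astrocyte probes. Array weights gave 18617 calls in all, and replicates 1 and 2 averaged as 1 gave 5122. The weights were 5.843, 0.373 and 0.459 on replicates 1, 2 and 3, so that fit rested mostly on replicate 1. With a gene's probes averaged first, 14 genes fell and 3 rose, beside 20.7% and 14.8% of all 12721 genes. Signs turned at 7 uncalled probes. Leaving out 1 array gave -0.04 to 0.03 at Slc1a2 A_51_P477875, -0.01 to 0.12 at Fgfr3 A_52_P506516, -0.09 to 0.82 at Sparcl1 A_52_P64356, -0.04 to 0.15 at Slc7a10, -0.26 to 0.00 at Bcan and -0.09 to 0.01 at Itih3. A dye term gave 0.01 at this Slc1a2 probe, -0.03 at Sparcl1 and -0.01 at Slc7a10, array weights gave -0.05 at Fgfr3 and 0.02 at Apoe, and replicates 1 and 2 averaged gave 0.01 at Itih3. The causes were not tested. Loess, median centring, the variance trend, reliable spots required on all 3 arrays and the deposited log2 ratio changed no call or sign among the 43 probes. Leaving out saturated probes was chosen after seeing the data. Each log2 ratio pairs mutant with wild type on its array, so the fit is already paired. Dim probes limit what can be said of Gfap.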
